A study of Rattus norvegicus with 7 samples.

Results

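The genes described here encode voltage-gated sodium channels (Scn), voltage-gated calcium channels with their auxiliary subunits (Cacna, Cacnb, Cacng), hyperpolarization-activated cyclic nucleotide-gated channels (Hcn) and transient receptor potential channels of the TRPC, TRPM and TRPV families. They were chosen by the form of the gene symbol, and 56 of the 15892 symbols listed in both expression tables met the rule. The 56 comprised 5 sodium channel alpha subunits, 4 sodium channel beta subunits, 10 calcium channel alpha1 subunits, 4 alpha2delta subunits, 4 calcium channel beta subunits, 7 gamma subunits, 4 HCN channels, 6 TRPC, 7 TRPM and 5 TRPV channels. The symbols Scn1a, Scn9a and Trpv1 matched the rule but were found in the hypothalamus table alone, and they were therefore not included. The sodium channel Nav1.2 was listed under the older symbol Scn2a1, which the rule does not match.

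Sodium channels carry the fast upstroke of the action potential, and calcium channels turn depolarization into transmitter release, dendritic calcium entry and burst firing. HCN channels open on hyperpolarization, bind cyclic AMP and set the resting potential and rhythmic firing of many neurons, including hippocampal pyramidal cells. TRP channels are mostly calcium-permeable cation channels that respond to receptor signalling through phospholipase C (TRPC), to oxidative, thermal or lipid stimuli (TRPM) or to heat and osmotic or mechanical stimuli (TRPV).

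Poly-A RNA was sequenced from the hippocampus (4 libraries) and the hypothalamus (3 libraries) of male Sprague Dawley rats. The animals were 2 months old at the start and ate a diet with DHA, an omega-3 fatty acid, for 6 weeks, so every library is from a DHA-fed rat. Rats on regular chow without DHA were not analysed here, and no effect of the diet was estimated. The tissues were dissected whole, and the labels do not say whether hippocampus and hypothalamus libraries of the same number came from the same rat.

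The tissue labels were checked against marker genes. All 8 markers of hypothalamic neurons (such as Hcrt, Pmch, Avp and Oxt) separated the tissues, with the lowest hypothalamus library above the highest hippocampus library. Of 5 markers of hippocampal excitatory neurons, 4 (Neurod6, Slc17a7, Wfs1 and Itpka) were higher in every hippocampus library, and Spink8 was at most 0.329 FPKM there. The hypothalamus libraries also held 73.0 to 291 FPKM summed over 4 pituitary markers, nearly all of it Cga, against 0.414 to 1.36 in hippocampus, and their part in the channel values was not tested. Summed FPKM per library ranged from 370020 to 391349 in hippocampus and from 443335 to 471484 in hypothalamus. FPKM are fragments scaled to transcript length and to the size of the library, and the number of reads behind them is unknown.

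Each tissue has its own table, so tissue and table cannot be told apart and no test was made between them. A gene is called higher in a tissue where 3 conditions held: a mean that reached 1 FPKM in either tissue, every library of that tissue above every library of the other after each library was rescaled to the same sum, and a difference of at least 2-fold between the means of log2(value + 1). All tissue differences below are hippocampus minus hypothalamus on that log2 scale after rescaling, and single values are FPKM as deposited. In dissected tissue, fewer cells of a type and less RNA per cell cannot be told apart.

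Of the 56 genes, 54 had values marked as OK in both tables, 12 of these were under 1 FPKM in both tissues, and 42 were compared. In the hippocampus direction, 14 of the 42 were called (33.3%), against 14.5% of all symbols compared. They include Scn8a, the sodium channel beta subunits Scn2b, Scn3b and Scn4b, the calcium channel alpha1 subunits Cacna1b, Cacna1d, Cacna1e and Cacna1i, the AMPA receptor auxiliary subunit Cacng3, and Trpc1, Trpc4 and Trpc6. In the hypothalamus direction, 5 were called (11.9%), against 13.4% of all symbols: Hcn3, Hcn4, Cacna2d2, Trpv2 and Cacng2, whose direction turned with the locus compared. The median difference was 0.49 over the 42 channel genes and 0.05 over all symbols compared. With FPKM as deposited, the calls were 8 and 6, against 8.64% and 16.9% of all symbols, and the medians were 0.19 over the channel genes and -0.21 over all symbols. Cacna1b, Cacna1d, Trpc1 and Trpc6 were among those not called on that scale, and Cacng7 was called in the hypothalamus direction. Upper-quartile and median-ratio scaling each gave 11 and 5 calls, against 10.8% and 13.5% of all symbols with the first and 12.1% and 12% with the second, and Cacna1d was among those lost. Among markers common to neurons, Rbfox3 was 57.9 to 128 FPKM in hippocampus and 49.1 to 73.5 in hypothalamus, and Tubb3 was 67.6 to 169 and 342 to 511. After rescaling, 4 of the 5 neuron markers were higher in every hippocampus library and Tubb3 was higher in every hypothalamus library. Markers of oligodendrocytes summed to 3542 to 4371 FPKM in hippocampus and 5568 to 7277 in hypothalamus. After rescaling, Mbp and Mobp were higher in every hypothalamus library, Mog was higher in every hippocampus library (88.2 to 130 FPKM against 73.1 to 85.7) and the other 3 of 6 overlapped. Of 4 thalamus markers 3 were higher in hypothalamus (sums of 23.8 to 39.2 and 50.5 to 133 FPKM). Striatum markers summed to 30.8 to 52.1 and 53.4 to 116 FPKM, microglia markers to 83.3 to 111 and 123 to 128, and endothelial markers to 85.8 to 129 and 52.1 to 77.1. After rescaling, the striatum marker Rgs9 was higher in every hypothalamus library, Drd1 in every hippocampus library, and 2 of 4 overlapped. The microglia markers Csf1r and P2ry12 were higher in every hypothalamus library, Cx3cr1 in every hippocampus library, and 2 of 5 overlapped. Of 4 endothelial markers, Cldn5 and Flt1 were higher in every hippocampus library and 2 overlapped. Of 5 astrocyte markers, Aqp4 and Aldh1l1 were higher in every hypothalamus library, Slc1a2 in every hippocampus library, and 2 overlapped. Of 4 ependyma markers, Ccdc153 and Tmem212 were higher in every hypothalamus library, Foxj1 in every hippocampus library, and 1 overlapped. The part of these cells and regions in the channel differences was not tested.

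**Figure D1:**
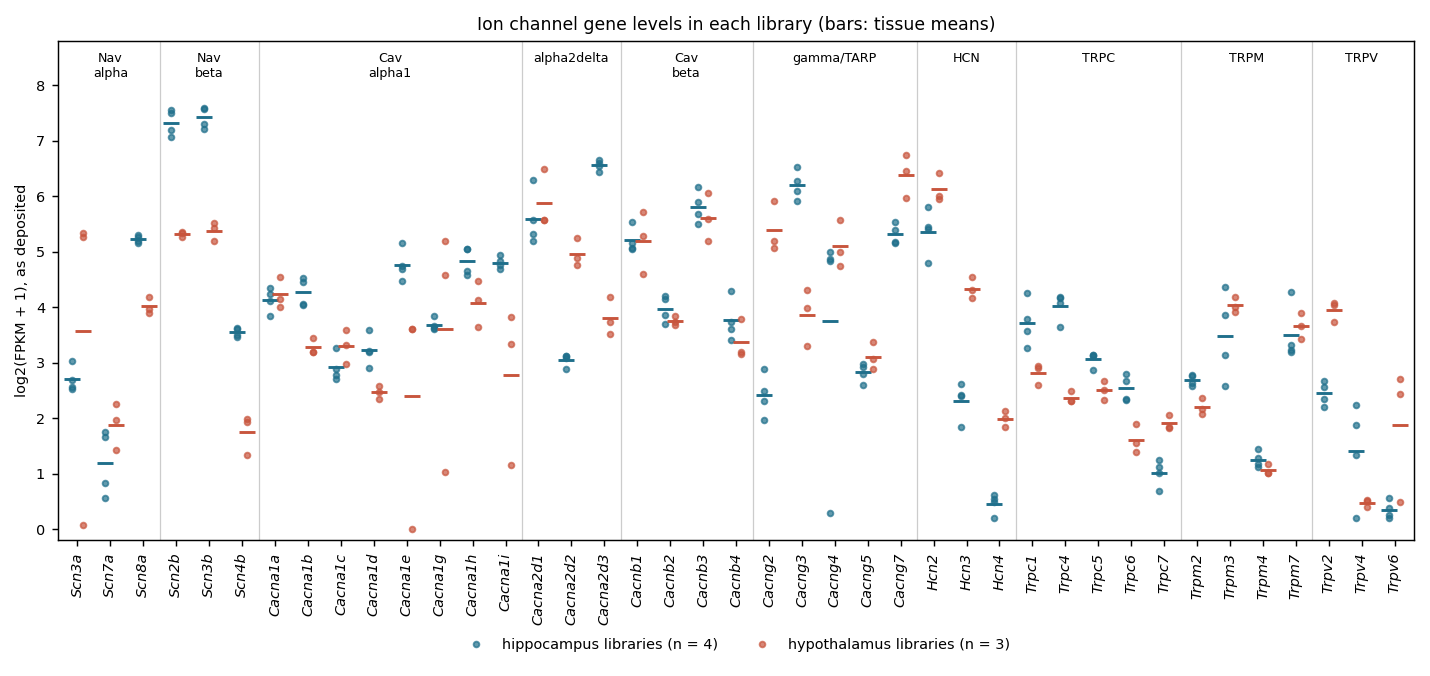
Levels of 41 channel genes whose mean reached 1 FPKM in either tissue, as log2(FPKM + 1) of the deposited values, grouped by family. Each point is a library (blue, 4 hippocampus; red, 3 hypothalamus) and each bar a tissue mean; Scn2b and Scn3b are separate between tissues, and single libraries of Scn3a, Cacna1e, Cacna1g and Cacng4 stand far from the others.

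**Figure D2:**
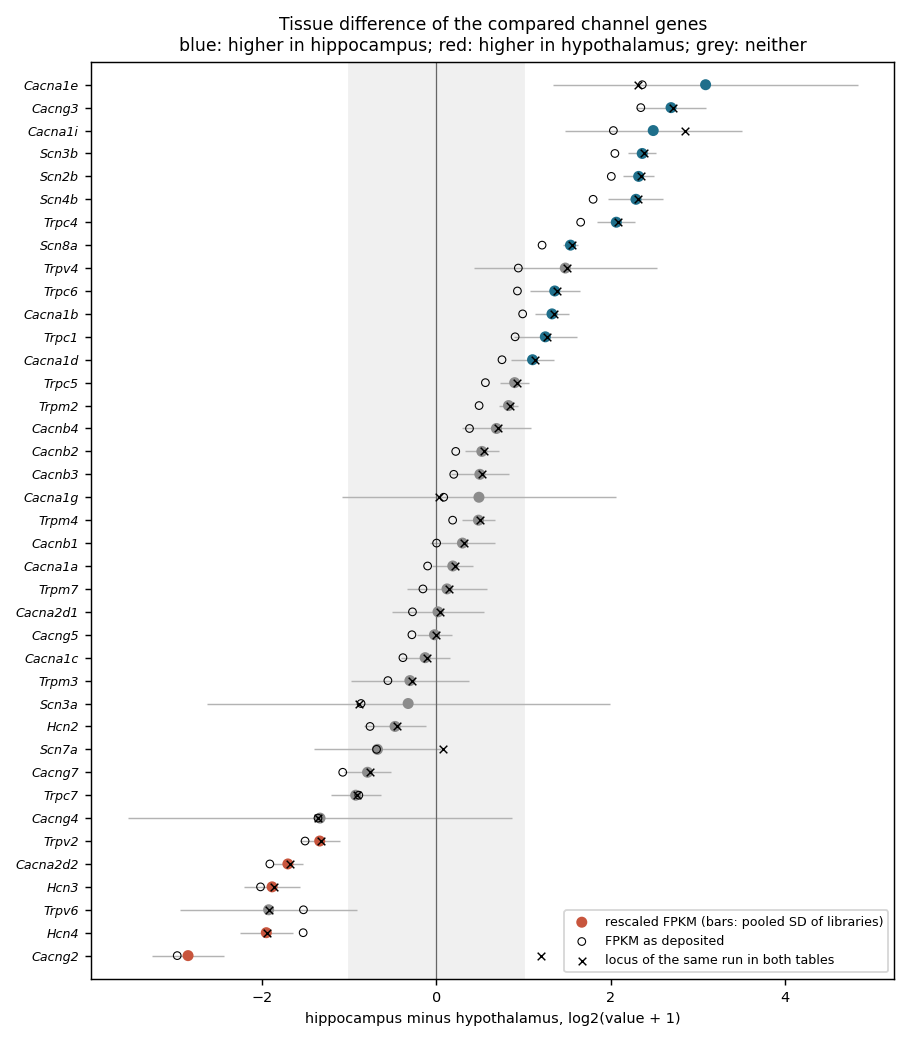
Tissue difference of 39 of the compared genes on the log2(value + 1) scale, sorted, with the pooled SD of the libraries as a bar. Blue points are 12 genes called higher in hippocampus, red points the 5 called higher in hypothalamus and grey points neither; open circles give the difference with FPKM as deposited, crosses the difference with the same run of each chromosome in both tables, and the shaded band spans less than 2-fold. The cross for Cacng2 lies at 1.20 while its point lies at -2.85.

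Among the pore-forming sodium channel alpha subunits that the rule matched, Scn8a had the highest mean in hippocampus. Scn8a encodes Nav1.6, the channel concentrated at the axon initial segment and nodes of Ranvier of adult neurons. Its values were 37.6, 38.6, 34.5 and 35.4 FPKM in the hippocampus libraries and 13.9, 14.7 and 17.2 in the hypothalamus libraries. The lowest hippocampus library lay above the highest hypothalamus library, the pooled SD of the libraries was 0.08, and the difference was 1.54. Scn2a1 (Nav1.2), outside the rule but the main partner of Nav1.6 in forebrain axons, was 42.4 ± 5.30 FPKM (SD, n = 4) and 26.3 ± 6.95 (SD, n = 3), above Scn8a in both means.

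Scn3a encodes Nav1.3, which is known for its high level in the developing brain. It was at 7.12, 4.73, 4.89 and 5.45 FPKM in hippocampus and at 0.0582, 39.4 and 37.5 in hypothalamus at its locus of highest mean. A further Scn3a locus in the hypothalamus table, on the annotated strand, was at 29.4, 11.1 and 12.3 FPKM. All 3 hypothalamus libraries therefore had over 10 FPKM at one locus or the other, more than any hippocampus library at either of its loci (at most 9.12). The main difference of -0.32 overlapped between tissues. It was -1.77 with loci summed and -2.42 without hypothalamus library 1, and Scn3a was called higher in hypothalamus in both. Without hypothalamus library 2 or 3, the annotated-strand locus had the higher mean there and was compared instead. The differences were then -1.43 and -1.39, and Scn3a was called too.

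Scn7a, which encodes the sodium-sensing channel Nax, was 0.473, 2.35, 0.781 and 2.15 FPKM in hippocampus and 2.89, 3.79 and 1.70 in hypothalamus, and the tissues overlapped. The hippocampus values are from the locus opposite the annotated strand, and the hypothalamus values from the annotated strand. On the annotated strand hippocampus held 0.0703, 0.116, 0.277 and 0.136 FPKM, below every hypothalamus library as deposited. The Scn7a difference was -0.68, and -1.28 with loci summed, where Scn7a was called higher in hypothalamus. With the same run of the chromosome in both tables, here opposite the annotated strand, the difference was 0.08. Hypothalamus held 0.0537, 3.83 and 2.79 FPKM there. The skeletal muscle channel gene Scn4a (0.788 ± 0.0336 and 0.375 ± 0.157 FPKM) and the nociceptor channel gene Scn11a (0.0463 ± 0.0182 and 0.957 ± 0.244 FPKM; SD, n = 4 and n = 3) were under 1 FPKM in both tissues by their means. With no minimum level, Scn11a was called higher in hypothalamus with a difference of -1.50, and it was also called without hypothalamus library 2, where its mean passed 1 FPKM.

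The sodium channel beta subunit genes Scn2b, Scn3b and Scn4b were called higher in hippocampus. Beta subunits are single-pass proteins with an immunoglobulin domain that shape channel gating and surface level and act as cell adhesion molecules. Scn2b was 145, 186, 179 and 132 FPKM in hippocampus against 39.2, 37.4 and 39.97 in hypothalamus, a difference of 2.32. Scn3b was 147, 191, 157 and 189 FPKM against 41.7, 35.3 and 44.7, a difference of 2.36. For both genes the lowest hippocampus library was far above the highest hypothalamus library. Scn4b, whose product promotes resurgent sodium current, was lower overall at 10.3, 11.1, 11.3 and 10.04 FPKM against 2.96, 2.83 and 1.51, and differed by 2.29.

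Scn3b had the highest mean of the beta subunits in hippocampus, 171 ± 22.4 FPKM (SD, n = 4). The share of Scn2b in the summed FPKM of the family was higher in every hippocampus library (27.1% to 38.3%) than in the hypothalamus libraries (21.4% to 26.5%). The shares of Scn3b and Scn4b overlapped.

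Scn2b and Scn4b are next to each other on chromosome 8 in the RefSeq annotation of GRCr8. Their differences of 2.32 and 2.29 were nearly equal, while their levels in hippocampus were 161 ± 26.1 and 10.7 ± 0.618 FPKM (SD, n = 4). Their promoter windows are printed because the neighbours share strand and direction of difference. Each window runs from 250 bases before to 50 bases after the annotated start, from RefSeq on GRCr8, on the plus strand, at chr8:54322133-54322432 for Scn2b and chr8:54343623-54343922 for Scn4b. No capitals appear because neither window holds any of the motifs searched.
Scn2b: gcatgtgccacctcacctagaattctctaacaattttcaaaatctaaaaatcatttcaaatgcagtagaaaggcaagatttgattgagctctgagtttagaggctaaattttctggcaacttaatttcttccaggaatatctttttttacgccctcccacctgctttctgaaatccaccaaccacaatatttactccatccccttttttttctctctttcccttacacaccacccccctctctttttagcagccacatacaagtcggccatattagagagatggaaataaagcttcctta
Scn4b: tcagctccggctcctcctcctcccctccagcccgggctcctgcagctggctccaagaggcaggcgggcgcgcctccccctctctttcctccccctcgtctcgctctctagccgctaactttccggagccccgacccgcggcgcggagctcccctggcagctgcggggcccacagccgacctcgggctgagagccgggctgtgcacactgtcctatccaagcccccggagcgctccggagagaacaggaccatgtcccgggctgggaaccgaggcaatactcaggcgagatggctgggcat
The Scn2b window is 39% G and C with 2 CpG dinucleotides, and the Scn4b window is 70% G and C with 24. A promoter was matched for 40 of the 56 genes, and their median was 13.5 CpG per window, against 7 over all 27457 promoters.

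The calcium channel alpha1 subunits form the pore and voltage sensor. Of the 7 compared, 4 were called higher in hippocampus and none in hypothalamus, where the calls took in 14.5% and 13.4% of all symbols. Among the genes of the presynaptic channels, Cacna1b (Cav2.2, N-type) was 15.5, 22.0, 15.6 and 20.8 FPKM in hippocampus and 8.11, 8.14 and 9.93 in hypothalamus, a difference of 1.33 with no overlap (0.99 as deposited). Cacna1a (Cav2.1, P/Q-type) was 16.7 ± 2.63 and 18.1 ± 3.89 FPKM (SD, n = 4 and n = 3), and its tissues overlapped. The ratio of Cacna1a to Cacna1b within a library, which does not depend on how libraries were scaled, was 0.740 to 1.25 in hippocampus and 1.85 to 2.26 in hypothalamus.

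Cacna1e encodes the R-type channel Cav2.3. It was 25.9, 24.6, 21.1 and 34.5 FPKM in hippocampus and 0, 11.2 and 11.1 in hypothalamus, a difference of 3.09. The 0 in hypothalamus library 1 stood beside 12.8 FPKM at a further Cacna1e locus on the annotated strand, which held 4.20 and 4.35 in libraries 2 and 3. The difference was 1.51 without hypothalamus library 1, 2.32 with the same run in both tables and 1.09 with loci summed, and Cacna1e was called higher in hippocampus each time.

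The L-type channels couple depolarization to gene transcription, and Cav1.3 opens at lower voltages than Cav1.2. Cacna1d (Cav1.3) was 11.1, 8.09, 6.46 and 8.20 FPKM in hippocampus and 4.07, 4.55 and 5.004 in hypothalamus. The tissues did not overlap, and the difference was 1.10. It was 0.75 as deposited and 0.96 without hippocampus library 1, and Cacna1d was called in neither. Cacna1c (Cav1.2) was 6.61 ± 1.36 and 8.97 ± 2.10 FPKM (SD, n = 4 and n = 3) and overlapped, at loci opposite the annotated strand. On the annotated strand the order was the other way, without overlap as deposited. There Cacna1c was 4.92, 6.43, 4.83 and 5.97 FPKM in hippocampus and 4.29, 3.79 and 4.28 in hypothalamus. Its difference was -0.13 at the loci of highest mean and 0.16 with loci summed. The retinal gene Cacna1f and the skeletal muscle gene Cacna1s were at most 0.0828 FPKM in any library.

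The T-type channels open near the resting potential and drive burst firing. Cacna1i (Cav3.3) was 29.5, 27.5, 26.04 and 24.6 FPKM in hippocampus and 1.23, 9.12 and 13.1 in hypothalamus, a difference of 2.49. These hypothalamus values are from another run of the chromosome than the sole hippocampus locus. In the run of the hippocampus locus, hypothalamus held 4.90, 3.69 and 4.34 FPKM, and the difference was 2.85. Cacna1i had the highest alpha1 mean in hippocampus among genes with status OK, at 26.9 ± 2.11 FPKM, where Cacna1e followed at 26.5 ± 5.67 (SD, n = 4). Those neighbours in the order did not differ beyond their spread. Without hypothalamus library 1 the Cacna1i difference was 1.57 and the call held. Cacna1g (Cav3.1) was 13.3, 11.1, 11.4 and 11.7 FPKM in hippocampus and 1.03, 22.9 and 35.5 in hypothalamus. Its mean there, 19.8 ± 17.5 FPKM (SD, n = 3), and that of Cacna1a did not differ beyond their spread. At the locus of highest mean, Cacna1g took 2.83%, 28.0% and 32.8% of alpha1 FPKM in the hypothalamus libraries, against 41.1%, 20.5% and 20.7% for Cacna1a. With the same run in both tables Cacna1a took the larger share in every hypothalamus library (22.8% to 30.1% against 21.1% to 23.3%). The Cacna1g tissues overlapped, with a difference of 0.49 that was -0.94 without hypothalamus library 1, 1.07 without library 2 and -1.08 with loci summed. The Cacna1g values listed for hypothalamus are from run 1, and the sole hippocampus locus lies in run 2. In run 2 hypothalamus held 13.8, 12.7 and 17.3 FPKM, and the same-run difference was 0.03. Without library 3 that run 2 locus had the higher mean and was compared instead, with a difference of 0.11. Cacna1h (Cav3.2) carried a failed status in 2 hippocampus libraries and was not compared, and its listed values were 31.9, 32.2, 22.8 and 24.2 FPKM in hippocampus and 11.5, 16.5 and 21.1 in hypothalamus.

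The alpha2delta subunits, the binding site of gabapentin for Cacna2d1 and Cacna2d2, carry calcium channels to the surface and take part in synapse formation. Cacna2d2 was 7.50, 7.66, 7.68 and 6.35 FPKM in hippocampus and 25.98, 28.4 and 36.9 in hypothalamus, a difference of -1.70 with no overlap. Cacna2d1 was 46.6, 38.7, 35.7 and 77.7 FPKM in hippocampus and 88.4, 46.3 and 46.3 in hypothalamus, and the tissues overlapped. Cacna2d3 carried a failed status in hippocampus library 2 and so was not among the genes compared. Its listed values were 99.4, 92.4, 86.0 and 96.2 FPKM in hippocampus and 17.1, 10.5 and 12.2 in hypothalamus. The 3 hippocampus libraries marked OK all lay above the hypothalamus libraries, and the difference with status ignored was 3.09.

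With status ignored, Cacna2d3 took 53.4% to 66.6% of summed alpha2delta FPKM in hippocampus and 12.3% to 13.0% in hypothalamus. Cacna2d1 took 27.6% to 43.1% and 48.5% to 67.2%, and Cacna2d2 3.52% to 5.93% and 19.8% to 38.7%. At the locus of highest mean, the leading alpha2delta gene was thus Cacna2d3 in every hippocampus library and Cacna2d1 in every hypothalamus library. With the loci of each gene summed, Cacna2d1 led in hippocampus library 4 (101 FPKM against 96.2 for Cacna2d3), and Cacna2d2 led in hypothalamus libraries 2 and 3 (47.99 and 62.7 FPKM against 46.3 and 46.3 for Cacna2d1). The share of Cacna2d3 still separated the tissues, at 47.2% to 64.7% and 9.9996% to 12.8%. Cacna2d4 was at most 0.0683 FPKM.

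None of the 4 calcium channel beta subunits, the cytosolic chaperones of the alpha1 subunits, was called, against 14.5% and 13.4% of all symbols, and nothing is read from this about the family. Cacnb3 was the highest of them in every library, at 70.5, 58.1, 50.4 and 44.4 FPKM in hippocampus and 35.5, 47.1 and 65.2 in hypothalamus. Cacnb1 was 36.1 ± 6.36 and 37.5 ± 14.2 FPKM, Cacnb2 14.8 ± 2.56 and 12.4 ± 0.824, and Cacnb4 12.9 ± 3.89 and 9.63 ± 2.80 (SD, n = 4 and n = 3). The share of each beta subunit in the family overlapped between tissues.

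**Figure D3:**
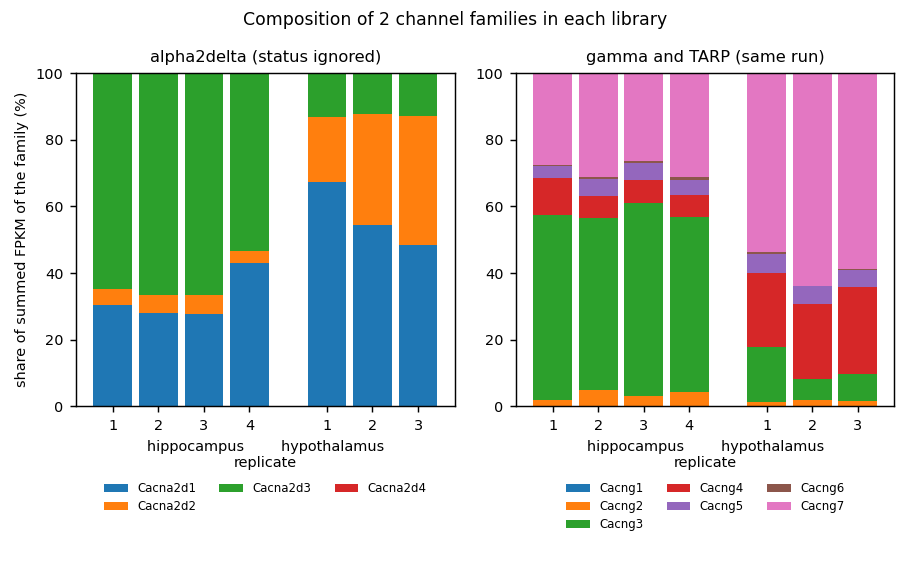
Share of each gene in the summed FPKM of its family, in percent, for every library (4 hippocampus bars, 3 hypothalamus bars) in alpha2delta with status ignored and in gamma and TARP subunits with the same run in both tables. The bands for Cacna2d3 and Cacng3 do not overlap between tissues.

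Most gamma subunits of the brain are TARPs, transmembrane proteins that carry AMPA receptors to the synapse and slow their gating. Cacng3 (TARP gamma-3) was 91.4, 67.6, 76.0 and 59.2 FPKM in hippocampus and 18.8, 8.81 and 14.7 in hypothalamus. The tissues were far apart, and the difference was 2.69. Cacng3 took 44.2% to 62.3% of gamma subunit FPKM in hippocampus and 5.21% to 12.9% in hypothalamus, or 51.7% to 57.9% and 6.48% to 16.3% with the same run in both tables. Cacng7 (TARP gamma-7) led in hypothalamus with 61.7, 86.8 and 105 FPKM against 45.5, 40.7, 34.6 and 35.1 in hippocampus, and its share was 42.3% to 51.3% against 23.0% to 31.0%, or 53.6% to 63.8% against 26.3% to 31.2% with the same run. Its libraries did not overlap, but its difference of -0.79 was under 2-fold after rescaling, and -1.07 as deposited.

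Cacng2 encodes stargazin, the founding TARP. At its locus of highest mean it was 2.91, 6.36, 3.96 and 4.62 FPKM in hippocampus and 32.4, 35.3 and 59.0 in hypothalamus, a difference of -2.85. The rows of each table pass along every chromosome 2 times, and these passes, called runs 1 and 2, matched the annotated strands of single-locus genes in 91.7% of cases in hippocampus and 91.9% in hypothalamus. The hypothalamus value is from the pass of the annotated strand, whereas the sole hippocampus locus lies in the opposite pass. Compared within that opposite pass, hypothalamus held 1.56, 2.34 and 2.53 FPKM, and Cacng2 was then higher in hippocampus with a difference of 1.20. No direction between the tissues can be given for Cacng2. With the same run in both tables, 15 and 5 channel genes were called, against 14.9% and 13.1% of all symbols.

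Cacng4 (TARP gamma-4) was 0.227, 30.8, 28.1 and 27.5 FPKM in hippocampus and 25.9, 30.7 and 46.7 in hypothalamus, and the low library 1 made the tissues overlap. In the other run, hippocampus held 18.3, 8.51, 9.03 and 7.63 FPKM, so library 1 was highest there. Compared within that run, Cacng4 was called higher in hypothalamus with a difference of -1.36, which was -1.63 without hippocampus library 1. At the loci of highest mean the difference was -1.33, and 0.08 without hippocampus library 1. With loci summed it was -0.20 and Cacng4 was not called. Cacng5 was 6.13 ± 0.812 and 7.70 ± 1.47 FPKM (SD, n = 4 and n = 3) with overlap, and Cacng1 and Cacng6 were under 1 FPKM by their means in both tissues.

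The promoter window of Cacng3 holds a feature shared with the TRPC gene Trpc7, and both are printed for that reason. Capitals mark TTCAGCACCACGGA, the longest stretch that the Cacng3 window holds at 2 places and the Trpc7 window also holds, the overlapping full match to RE1, the element bound by the repressor REST, in Trpc7, and a GC box (CCGCCC, the complement of GGGCGG) in Cacng3. The windows are from RefSeq on GRCr8, plus strand, at chr1:186632312-186632611 for Cacng3 and chr17:7714651-7714950 for Trpc7.
Cacng3: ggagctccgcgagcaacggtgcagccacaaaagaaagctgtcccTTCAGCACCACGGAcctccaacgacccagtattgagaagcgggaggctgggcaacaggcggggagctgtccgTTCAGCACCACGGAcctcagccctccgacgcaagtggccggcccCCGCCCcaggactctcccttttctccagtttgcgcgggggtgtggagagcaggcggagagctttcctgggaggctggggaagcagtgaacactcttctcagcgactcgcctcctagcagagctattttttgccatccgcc
Trpc7: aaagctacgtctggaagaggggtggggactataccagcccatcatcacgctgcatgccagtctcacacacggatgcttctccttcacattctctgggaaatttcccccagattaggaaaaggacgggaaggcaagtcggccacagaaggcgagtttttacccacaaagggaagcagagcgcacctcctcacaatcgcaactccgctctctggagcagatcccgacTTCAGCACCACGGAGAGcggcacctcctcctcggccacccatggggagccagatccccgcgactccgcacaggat
Searched on both strands, the stretch was found in 2 of all 27457 windows (0.00728%), those of Cacng3 and Trpc7. It was chosen after these sequences were seen, and its length follows from that choice. The full RE1 was found in 15 windows (0.0546%), and among the channel genes in Trpc7 alone. The genes differed between tissues in opposite directions, 2.69 for Cacng3 and -0.93 for Trpc7. Of the other motifs, searched on both strands, GGGCGG was in 19 of 40 channel windows (34.9% of all windows), CCAAT in 7 (37.7%), TATAAA in 3 (14.3%) and TGACGTCA in 0 (1.91%).

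The HCN family was dominated by Hcn2 in both tissues, with 54.6, 42.4, 41.5 and 26.9 FPKM in hippocampus and 60.7, 63.0 and 84.7 in hypothalamus. Its libraries did not overlap as deposited but overlapped after rescaling, with a difference of -0.47 that was -0.28 without hippocampus library 4 and -0.63 without hippocampus library 1. Hcn3, which encodes a slowly activating channel with little response to cyclic AMP, was 5.11, 4.30, 4.32 and 2.56 FPKM in hippocampus and 18.7, 16.8 and 22.3 in hypothalamus. Every hypothalamus library was above every hippocampus library, and the difference was -1.88. Hcn4, the main channel of the cardiac pacemaker, was 0.4002, 0.531, 0.449 and 0.141 FPKM in hippocampus and 2.56, 2.99 and 3.36 in hypothalamus. It too was apart in all libraries, with a difference of -1.95, and at a pseudocount of 5 the difference was -0.97.

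Shares within the family also separated the tissues. Hcn2 took 74.5% to 81.7% of HCN FPKM in hippocampus and 70.2% to 72.4% in hypothalamus. Hcn3 took 7.09% to 8.05% and 18.9% to 21.6%, and Hcn4 0.391% to 0.993% and 2.87% to 3.35%. The Hcn2 to Hcn3 ratio within a library was 9.61 to 10.7 in hippocampus and 3.25 to 3.81 in hypothalamus.

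TRPC channels open downstream of receptors coupled to Gq and phospholipase C. Trpc4 and Trpc5 form one subgroup, Trpc6 and Trpc7 belong to another that is gated by diacylglycerol, and Trpc1 joins other subunits in mixed channels. Trpc1, Trpc4, Trpc5 and Trpc6 were higher in every hippocampus library and Trpc7 in every hypothalamus library after rescaling, against 28.2% and 24.4% of all symbols apart in those directions.

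Trpc4 was 11.5, 17.2, 15.9 and 17.0 FPKM in hippocampus and 4.63, 3.95 and 3.93 in hypothalamus, a difference of 2.06. It was above Trpc1 in hippocampus libraries 1 to 3 and below it in library 4. The Trpc4 share of TRPC FPKM was 29.6% to 34.2% there and 17.5% to 19.2% in hypothalamus. Its relative Trpc5 was 6.27, 7.68, 7.81 and 7.80 FPKM against 5.38, 4.01 and 4.69, a difference of 0.90 that reached 1.01 without hypothalamus library 1. The Trpc4 to Trpc5 ratio was 1.84 to 2.24 in hippocampus and 0.837 to 0.985 in hypothalamus, so Trpc4 exceeded Trpc5 in every hippocampus library and in no hypothalamus library.

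Trpc1 was 8.54, 10.8, 12.8 and 18.1 FPKM in hippocampus and 6.64, 5.05 and 6.49 in hypothalamus, where it led the family, and it differed by 1.25. Trpc6 was 4.06, 5.92, 4.04 and 5.39 FPKM against 2.71, 1.92 and 1.604, a difference of 1.36. As deposited, the differences of Trpc1 and Trpc6 were 0.90 and 0.93.

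Trpc7 differed in the other direction, at 0.601, 1.37, 1.16 and 1.02 FPKM in hippocampus and 2.55, 2.56 and 3.14 in hypothalamus. Its libraries were apart and its difference was -0.93, or -1.03 without hippocampus library 2, where it was called. It took 1.70% to 2.72% of TRPC FPKM in hippocampus and 9.76% to 14.0% in hypothalamus. The ratio of Trpc1 to Trpc7 was 7.93 to 17.7 and 1.97 to 2.61.

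None of the 4 TRPM genes compared was called, against 14.5% and 13.4% of all symbols, and nothing is read from this about the family. Trpm3, a heat- and neurosteroid-activated channel, was at 13.4, 4.97, 19.6 and 7.76 FPKM in hippocampus and 15.1, 17.2 and 14.1 in hypothalamus, where it was above the other TRPM genes in every library. In hippocampus Trpm3 and Trpm7 did not differ beyond their spread. Trpm7, a channel fused to a protein kinase, was 8.11, 8.42, 8.92 and 18.3 FPKM in hippocampus and 11.7 ± 2.06 (SD, n = 3) in hypothalamus. Trpm2, opened by ADP-ribose during oxidative stress, was 5.44 ± 0.408 and 3.60 ± 0.469 FPKM (SD, n = 4 and n = 3) and was apart with a difference of 0.83. Trpm4, a calcium-activated cation channel, was 1.39 ± 0.239 and 1.10 ± 0.139 FPKM (SD, n = 4 and n = 3), with a difference of 0.48. Trpm1, Trpm5 and the cold receptor gene Trpm8 were at most 0.115 FPKM in any library.

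Among TRPV genes, Trpv2 was 5.36, 3.61, 4.90 and 4.09 FPKM in hippocampus and 15.5, 12.3 and 15.9 in hypothalamus. It led the family in both tissues, all libraries were apart, and the difference was -1.34. Trpv6, an epithelial calcium channel gene, was 0.475, 0.305, 0.185 and 0.143 FPKM in hippocampus and 0.397, 4.39 and 5.49 in hypothalamus. Hypothalamus library 1 lay within the hippocampus range, and without it the difference was -2.81 and Trpv6 was called. Trpv6 was also called without hippocampus library 1, at -2.07. Its neighbour on chromosome 4, Trpv5, was at most 0.0109 FPKM, and Trpv3 was 0.497 ± 0.0632 and 0.654 ± 0.0353 (SD, n = 4 and n = 3).

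Trpv4, an osmosensitive channel, was 2.66, 0.151, 3.73 and 1.52 FPKM in hippocampus and 0.314, 0.440 and 0.415 in hypothalamus. Hippocampus library 2 lay below every hypothalamus library, and the other hippocampus libraries lay above them. The difference was 1.48 with all libraries and 2.11 without hippocampus library 2, where Trpv4 was called higher in hippocampus. Markers of the choroid plexus, the epithelium that secretes cerebrospinal fluid, moved with it. Of 9 listed, 8 were found, Otx2 was at 0 in all libraries, and the other 7 were lower in library 2 than in any other hippocampus library. Their summed level was 4776, 35.3, 6017 and 2101 FPKM in the hippocampus libraries and 34.8 to 73.5 in hypothalamus. Ttr made up most of it, at 4651, 31.9, 5771 and 1967 FPKM. Trpv4 and Trpm3 shared the order of these hippocampus libraries, from library 3 through 1 and 4 to 2, which was the order of the sum and of Ttr, Kcnj13 and Aqp1. The other 4 markers, Kl, Clic6, Slc4a5 and Cldn2, were higher in library 4 than in library 1. In hypothalamus, Trpm3 was at 14.1 FPKM or more where the choroid plexus sum was at most 73.5. The part of choroid plexus RNA in the levels of either gene was not tested.

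**Figure D4:**
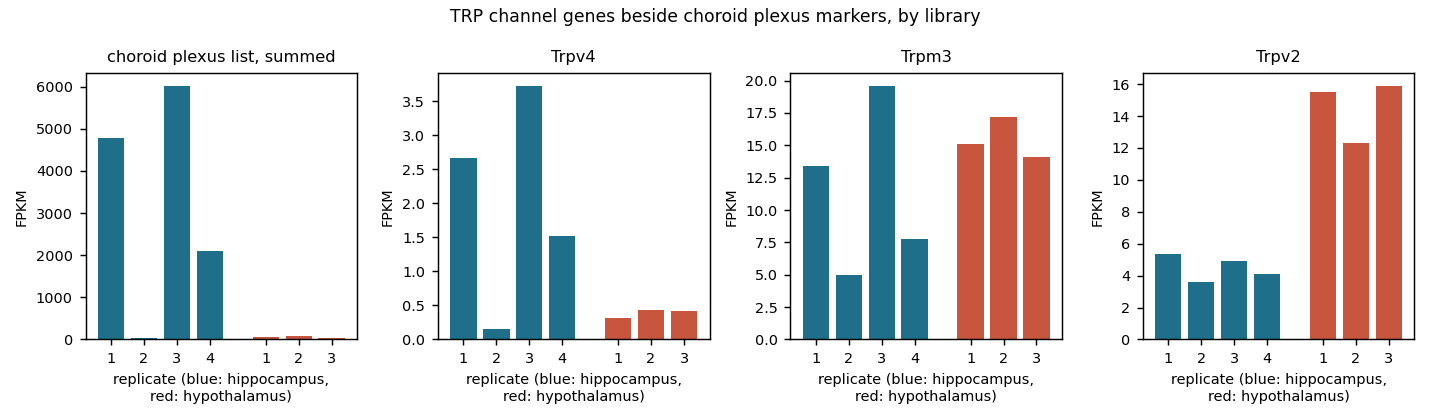
FPKM by library of the summed choroid plexus marker list and of Trpv4, Trpm3 and Trpv2 (blue, 4 hippocampus libraries; red, 3 hypothalamus libraries). Hippocampus library 2 is lowest in all 4 panels among hippocampus libraries, and Trpv2 is higher in every hypothalamus library.

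The median spread among libraries of the channel genes was close to that of all loci. The median SD of log2(FPKM + 1) was 0.24 over 40 channel genes and 0.24 over all loci whose mean reached 1 FPKM in hippocampus, and 0.26 over 41 channel genes and 0.25 over all loci in hypothalamus. Cacng4, Trpv4, Trpm3 and Scn7a were among the most variable in hippocampus, with SDs of 2.30, 0.89, 0.79 and 0.59. Scn3a, Cacna1g, Cacna1e, Cacna1i and Trpv6 varied most in hypothalamus, with SDs of 3.01, 2.25, 2.08, 1.42 and 1.21, and library 1 was lowest in each. These 5 are 12.2% of the channel genes there, while 3.49% of all loci had an SD above 1. In hippocampus the order was the other way, with 1 of 40 channel genes (2.5%) and 5.68% of all loci above that SD.

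Many of these genes had more than 1 locus. In hippocampus 12 of the 56 had 2 loci and in hypothalamus 10 did, always with 1 in each run of the chromosome. Library 1 was low at one of the loci in several cases. For Cacna2d1 in hippocampus, the run 1 locus held 0.163, 32.6, 22.3 and 23.4 FPKM, while the run 2 locus of the annotated strand held 46.6, 38.7, 35.7 and 77.7. For Cacng3 in hippocampus, the locus opposite the annotated strand held 0.240, 4.24, 3.11 and 4.41 FPKM. For Cacna2d2 in hypothalamus, the locus opposite the annotated strand held 1.25, 19.6 and 25.8 FPKM beside 25.98, 28.4 and 36.9 on the annotated strand. A library 1 value under 0.1 times the lowest of the other libraries, where that was at least 2 FPKM, occurred at 4 hippocampus loci and 6 hypothalamus loci of the channel genes. All 4 and 5 of the 6 belonged to genes with 2 loci, and the other was Trpv6. For these genes the level at a single locus differs from the level of the gene in library 1, and how fragments were shared between the loci is not given in the sources used here. Whether library 1 of each tissue was prepared or counted by strand in another way than the rest is not given either and was not tested. With both libraries numbered 1 left out, 13 channel genes passed the call rule in the hippocampus direction, where 18% of all symbols did, and 8 in the hypothalamus direction, where 16% did.

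**Figure D5:**
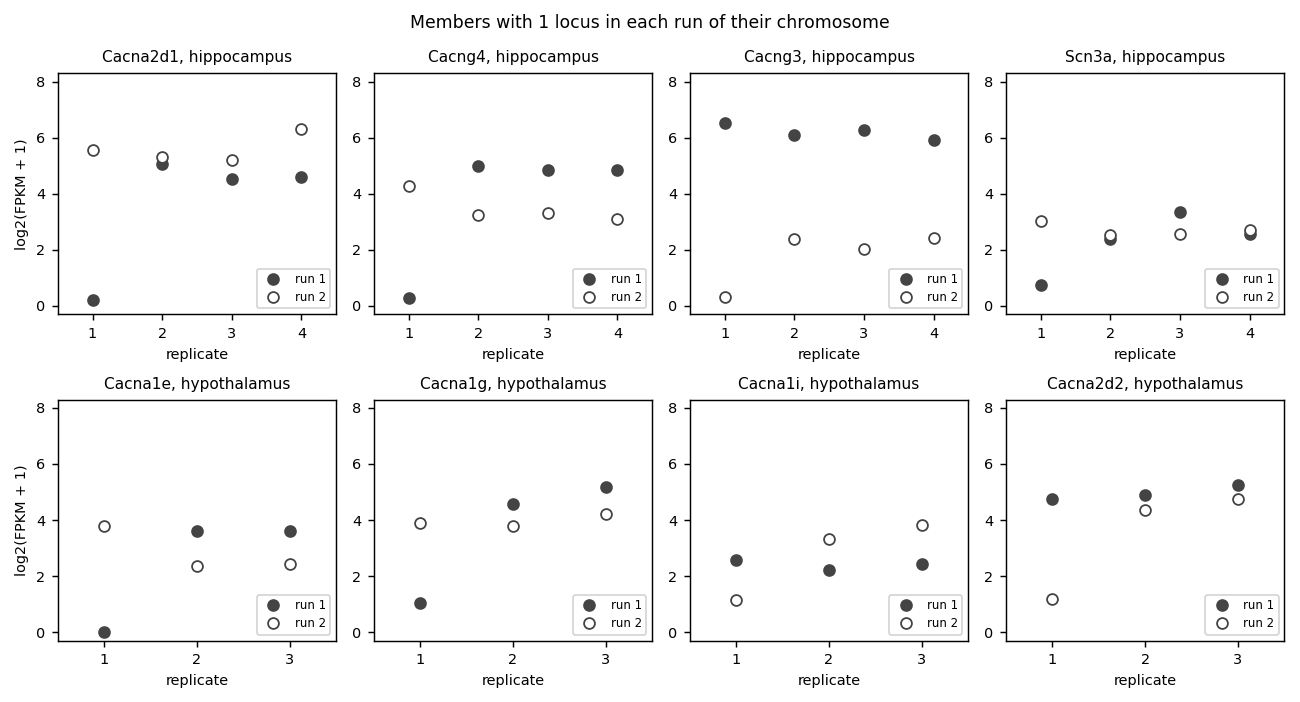
Both loci of 8 channel genes as log2(FPKM + 1) by library, filled points for run 1 and open points for run 2 of the chromosome. Except for Cacng3, Cacna2d2 and Cacna1i, whose run 2 locus is the lower one in library 1, the run 1 locus is the lower one in library 1.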

How the data were processed

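The deposited values are FPKM per locus, made by the authors, in 1 table per tissue, with a status word beside each value per the file headers. TopHat, Bowtie, Cufflinks, Cuffdiff and the rat build rn5 are named in the submitters' processing notes, whose versions and settings are not given in the sources used here. Loci were joined by symbol, with the highest-mean locus per symbol, and only values marked OK were compared. The locus was chosen again when a library was left out, so such a difference can be from another locus. Each library was rescaled to sum to 1000000 over the 15805 symbols with status OK in both tables, and log2(value + 1) was taken. The difference therefore understates the change of low genes. Calls and the minimum of 1 FPKM are described with the results. Shares and ratios use FPKM as deposited. Per-library values are given for called genes, for the leading gene of each family and for the 5 most variable genes per tissue. Some genes that these rules name enter the counts and fits but are not reported here. Ratios of low values between libraries fell in a single bin for 19.5% to 25% of low loci in pairs without a library 1, and for 1.80% to 3.66% in pairs with one, so whole reads were not recovered and depth is unknown. The members and lists were chosen with earlier results of these data known. The calling code was tested on simulated data. Tools were Python 3.11.15, pandas 2.3.3 and NumPy 2.4.6. Motifs were searched in RefSeq promoters of GRCr8, whose coordinates are not those of rn5.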

Additional observations from a re-analysis of the deposited data

Results flagged for a closer look

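In the 4 hippocampus libraries, 4 of 41 results had one library far from the others relative to the group's range. Chance gives about 1 in 20 groups, or 2.05 of 41. Cacng4 had the highest ratio of gap to range, 0.966, with library 1 lowest at 0.227 FPKM. Trpc5 had a ratio of 0.920, with library 1 lowest at 6.27 FPKM beside 7.68 to 7.81. Trpm7 had a ratio of 0.887, with library 4 highest at 18.3 FPKM beside 8.11 to 8.92. Cacna2d2 had a ratio of 0.871, with library 4 lowest at 6.35 FPKM beside 7.50 to 7.68. The 3 hypothalamus libraries were not examined in this way.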

How the results depend on the processing

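The tissue differences of 42 genes and the counts, shares and spreads were recomputed under other pseudocounts, scalings, filters and locus rules, and with libraries left out. Of 672 alternative tissue differences, 623 stayed within the replicate spread, 48 moved beyond it and 1 reversed a called difference. In all, 24 had the other sign, in 11 genes, of which 10 were not called. The called gene, Cacng2, reversed to a difference of 1.20 with the same run in both tables, an alternative chosen after seeing the data. The count higher in hippocampus was 8 with FPKM as deposited, and the count higher in hypothalamus was 8 without both libraries numbered 1. Leaving out 1 library gave 13 to 15 and 5 to 7 (13.8% to 16.8% and 13.1% to 15.2% of all symbols), and 32 to 36 and 2 to 4 for the partner genes, an alternative added after seeing the data. The median hypothalamus SD was 0.165 with a pseudocount of 5 and 0.166 to 0.340 with 1 library left out, against 0.195 to 0.264 in hippocampus; the cause was not tested. No paired analysis was possible because the tissue results come from no test, and the labels do not say whether equal numbers mark the same rat. Read depth is unknown, which limits values under 1 FPKM. Without that minimum, 54 genes gave 14 and 6 calls, against 10.2% and 9.5% of all symbols.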

Other observations

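Genes whose products work with these channels were counted by the same rule, against 14.5% of all symbols called in the hippocampus direction and 13.4% in the hypothalamus direction. Of 14 presynaptic partners of calcium channels, 11 were higher in hippocampus and none in hypothalamus. The largest differences among the called genes were those of Unc13a (2.02; 50.2 ± 4.99 against 15.1 ± 3.13 FPKM), a vesicle priming factor, Erc2 (2.02), Pclo (1.94) and Cplx2 (1.88), which belong to the active zone and the fusion machinery. Of 6 AMPA receptor genes compared, 4 were higher in hippocampus: Gria3 (3.0; 66.4 ± 21.8 against 9.63 ± 2.46 FPKM), Cnih3 (3.0; 43.0 ± 9.05 against 6.35 ± 2.04), Shisa6 (2.14) and Gria1 (1.25, not called with FPKM as deposited). Gria4 (0.55) and Cnih2 (-0.18) were not called. Of 12 voltage-gated potassium channel genes compared, 9 were higher in hippocampus and none in hypothalamus, with the largest differences for Kcnq5 (2.34), Kcnh1 (2.14), Kcnq3 (2.04) and Kcnh7 (1.89). Kcnh1 was at 0 FPKM in hypothalamus library 1 beside 4.02 and 5.90, and without that library its difference was 0.93 and 8 potassium channel genes were called. All ± values are SDs with n = 4 in hippocampus and n = 3 in hypothalamus.

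Among 9 axon initial segment and sodium channel partners, Fgf13 (2.13; 205 ± 73.2 against 56.4 ± 18.7 FPKM), the ubiquitin ligase gene Nedd4l (2.13) and Fgf11 (1.81) were higher in hippocampus, and Fgf12 (-1.07; 30.1 ± 5.48 against 78.6 ± 19.7) was higher in hypothalamus, a call lost without hippocampus library 2 (-0.97) or hypothalamus library 1 (-0.86), or without both libraries numbered 1 (-0.98). The Fgf genes encode intracellular factors that bind the tails of sodium channels. Among 4 HCN partners, Nedd4l and Pex5l (1.22, not called as deposited), the gene of an HCN trafficking subunit, were higher in hippocampus, and Flna (-2.75; 11.5 ± 8.58 against 94.1 ± 55.9) was higher in hypothalamus. Markers of the meninges summed to 27.8 to 153 FPKM in hippocampus and to 90.01, 198 and 38.3 in hypothalamus, where Flna was 92.5, 151 and 39.02; none of the 7 was apart between tissues, and their part in the Flna difference was not tested. Of 8 genes of the Gq and phospholipase C pathway, Itpr1 (3.10; 116 ± 20.7 against 16.3 ± 3.33), Plcb1 (1.74) and Gna11 (1.64) were higher in hippocampus, and Plcb4 (-1.32) was higher in hypothalamus. Of 8 genes of store-operated entry and other TRP channels, Stim2 (1.59) was higher in hippocampus and Orai1 (-1.02) in hypothalamus. The call of Orai1 was lost with the same run in both tables (-0.9996) and without hippocampus library 2 (-0.90) or 4 (-0.90) or hypothalamus library 2 (-0.97) or 3 (-0.88). Over all the lists, 32 genes were higher in hippocampus and 4 in hypothalamus, or 27 and 6 with FPKM as deposited, where Snap25, Kcna2 and Kcnc2 were also not called.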
